A study of Danio rerio with 12 samples.

Results

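Chromatin accessibility was compared between melanoma cells and premalignant melanocytes of adult zebrafish within a single sequencing run, since every melanocyte library of the series was sequenced in that run. ATAC-seq, which tags accessible DNA by transposition of adapters, had been performed on cells sorted by fluorescence. Each library had its own peak list on GRCz11. Of the 12 libraries, 6 belonged to run 2, comprising 2 of melanoma (MA 4 and MA 5) and 4 of melanocytes (MC_Het 4, MC_Het 5, MC_Het 6 and MC_Homo). The other 6 libraries were melanomas of run 3 (MA 6 to MA 11) and were used only as lists on which the run 2 regions had not been chosen.

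The MA cells were sorted for GFP from tumors of fish of genotype BRAFV600E/p53lf/lf/crestin:EGFP. The MC_Het cells were sorted for mCherry from stripped skin of fish of genotype BRAFV600E/+/p53+/lf/mitfa+/-/mitfa:mCherry, and the MC_Homo cells from a fish of genotype BRAFV600E/p53lf/lf/mitfa+/-/mitfa:mCherry. By the methods of the study, each library came from a different fish, and the melanocyte reporter was carried with a mitfa minigene (MiniCoopR). All 6 run 2 libraries therefore carried mutant BRAF and at least 1 p53 loss-of-function allele. Malignancy, tissue of origin, reporter and mitfa status differed together between MA and MC. BRAF status (BRAFV600E against BRAFV600E/+ in the labels) and p53 status also differed between MA and MC_Het. The effects of all these cannot be told apart. MC_Homo was the only library of its genotype. Marker genes of the 2 cell types were not looked up, because no gene annotation of this assembly was used here, and sites are given by position.

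Melanocytes arise from the neural crest, an embryonic cell population, and depend on the transcription factor mitfa. In zebrafish, crestin is a neural crest transcript that is lost in adult tissue and expressed again in melanoma, which is why its promoter labels tumor cells, while the mitfa promoter labels cells of the melanocyte lineage. Open chromatin marks promoters, enhancers and insulators that proteins can reach, and much of it is shared by related cell types while a part, mostly of distal elements, differs between them. A peak list records where the signal of a library passed a threshold, so detection, strength relative to the rest of the list, width and position are what can be compared.

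The lists held 93577 and 88846 intervals on chromosomes 1 to 25 in MA 4 and MA 5, against 57910 to 266537 in the MC libraries. Intervals within 1 bp of 120 bp formed a sharp narrow class of 15.5 and 14.8% in MA and of 7.83 to 26.8% in MC, and were left out. The class stood far above its neighbours. Its lowest width held 9473 intervals in MA 4, against 451 at the width 1 bp below the class and 945 at 1 bp above it. In MC_Het 4 the corresponding numbers were 12755, 620 and 1358. Depth recovered from the peak scores was 6.31 and 7.85 M tags (a tag is a read end, M stands for mega) in MA, against 6.42 to 24.6 M in MC, with MC_Het 5 the deepest. Each list was then cut to the length of the shortest, that of MC_Homo, by −log10 p. In the 5 longer lists the last interval kept and the first left out had the same −log10 p. Such ties were ordered by fold enrichment and then at random.

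At equal list length, the median interval was wider and stood higher over background in both MA lists than in every MC list. The exact permutation test used for these values cannot pass a threshold of 0.05 with 2 against 4 libraries. The median width was 221 bp in MA 4 and 201 bp in MA 5, against 134, 196, 146 and 124 bp in MC_Het 4, MC_Het 5, MC_Het 6 and MC_Homo. Both MA libraries lay above all 4 MC libraries, although MC_Het 5 came within 5 bp of MA 5. The means were 211 ± 14.1 bp in MA and 150 ± 32.0 bp in MC (SD, n = 2 and 4, exact permutation of all 15 splits, two-sided p = 0.133, adjusted p over 7 measures 0.311). The median fold enrichment at the summit was 10.2 and 8.96 in MA, against 5.64, 8.09, 6.30 and 5.17 in MC. The means of 9.57 ± 0.853 and 6.30 ± 1.28 (SD, n = 2 and 4) gave an exact permutation p = 0.0667, which is the smallest that 2 against 4 libraries allow, and the adjusted p was 0.233.

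The covered length, the share of wide intervals and the weakest score overlapped between MA and MC. The cut lists covered 10.4 and 9.65 Mb in MA, against 6.64, 9.92, 7.33 and 5.86 Mb in MC (exact permutation p = 0.2, n = 2 and 4). Intervals of 500 bp or more made up 2.57 and 2.20% in MA, against 0.354, 4.003, 0.711 and 0.208% in MC. The weakest interval kept had a −log10 p of 8.59 and 7.92 in MA, against 5.53, 11.6, 6.71 and 3.39 in MC. MC_Het 5 exceeded both MA libraries in wide intervals and in the weakest score, and it was also the library with the most tags. The part of depth in these differences was not tested.

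**Figure D1:**
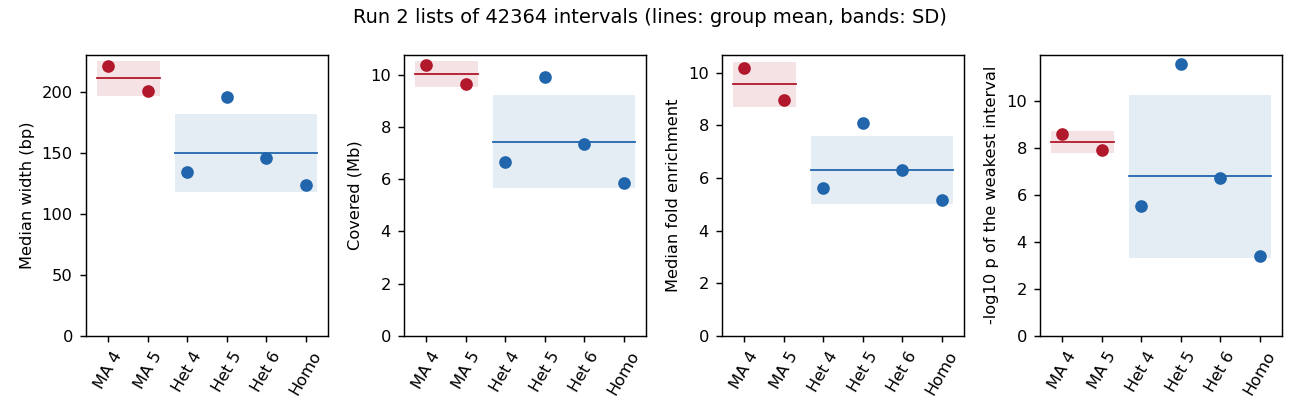
Median width (bp), total length covered (Mb), median fold enrichment and the −log10 p of the weakest interval in each run 2 list, with MA in red and MC in blue. Lines are group means and bands 1 SD (n = 2 and 4). Median width and fold enrichment are higher in both MA libraries than in every MC library, whereas MC_Het 5 reaches into or above the MA range for covered length and for −log10 p.

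The 6 lists merged into 127737 regions, and many more were found in both MA and no MC than in all MC and no MA. Regions of both MA lists and no MC list (hereafter MA-only) numbered 8761, or 6.86% of all regions. Regions of all 4 MC lists and no MA list (MC-only) numbered 1067, or 0.835% of all regions. A further 7541 regions, or 5.90% of all regions, were held by all 6 lists. The ratio of MA-only to MC-only was 8.21. It was 1.997 in lists of the 10000 strongest intervals (2368 MA-only and 1186 MC-only) and 18.8 at a −log10 q of at least 10 without an equal list length (7822 and 416). It is a description without a test, since detection in 2 against 4 libraries defined the sets. The rule asks for presence in 2 lists on the MA side and 4 on the MC side, so the counts are not on an equal footing.

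Comparing both MA lists with 2 MC lists at a time removed that imbalance. Between 11063 and 12449 regions were then in both MA and neither MC list, against 3201 to 6214 in both MC and neither MA list, over the 6 choices of MC pair. The MA side was the more numerous in every choice, and the smallest gap was for MC_Het 5 with MC_Het 6 (11139 against 6214). The lists of the 2 tumors also overlapped more. They shared 66.7% of their regions, against 41.4% on average for the 6 MC pairs (33.1 to 53.2%) and 38.4% for the 8 pairs of an MA with an MC list (30.2 to 45.8%).

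Most regions were seen in few libraries. A total of 57729 regions were in 1 MC list and no other, of which MC_Homo gave 19554, MC_Het 4 gave 15792, MC_Het 6 gave 12820 and MC_Het 5 gave 9563. In comparison, MA 4 alone gave 8688 regions and MA 5 alone 7470. Each MC list thus held more regions of its own than each MA list did. Just outside the MA-only set lay 4400 regions of both MA and a single MC list, 1003 to 1302 for each MC library. Just outside the MC-only set lay 1065 regions shared with MA 5 and 423 shared with MA 4. A further 3399 regions were in 3 MC lists and no MA list, of which 1415 lacked MC_Homo, 986 MC_Het 4, 737 MC_Het 6 and 261 MC_Het 5.

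**Figure D2:**
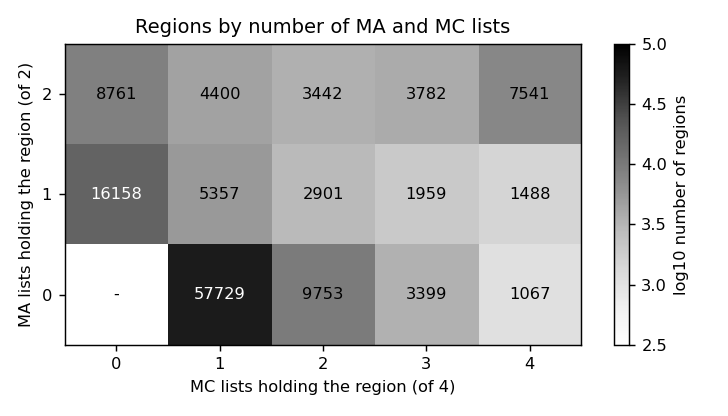
Number of the 127737 run 2 regions by how many MA lists (vertical axis, 2 at the top) and how many MC lists (horizontal axis) held them, with darker cells for more regions on a log10 scale. The top left cell is the MA-only set (8761), the bottom right cell the MC-only set (1067) and the top right cell the regions of all 6 lists (7541).

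Both counts moved with the settings. The MC-only set held 1734 regions when the narrow class was kept and 416 at the stricter q. Leaving out MC_Het 4 gave 2054 MC-only regions, MC_Het 6 1806 and MA 5 2133. Leaving out a library asks for presence or absence in fewer lists, so at the same list length both counts rise by construction. Without MC_Homo there were 2481 at the same list length, and 2993 when the lists, no longer held to the shortest, were lengthened to 60900. The MA-only set held 9397 with the narrow intervals kept and 7822 at the stricter q. It held 16411 without MA 4 and 17564 without MA 5, when a single MA list was required. With intervals of 150 bp or more only, a choice made after seeing the data that shortened the lists to 10850, 2350 MA-only and 399 MC-only regions were found. These were 7.53 and 1.28% of the 31223 regions of that setting, against 6.86 and 0.835% in the main one. At the stricter q the shares were 12.7 and 0.677%, and with the narrow class kept 6.43 and 1.19%.

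Some regions missing from a cut list were present further down in the complete list, from which the narrow class had also been dropped. Of the MA-only regions, 3587 (40.9%) overlapped no interval in any complete MC list, against 48.8% of all 24919 regions in no cut MC list. The complete MC_Het 5 list, by far the longest, overlapped 4833 of the MA-only regions (55.2%), and those of MC_Het 6 and MC_Het 4 overlapped 1025 (11.7%) and 584 (6.67%). MC_Homo could add none, since its list was not shortened. Of the MC-only regions, 688 (64.5%) overlapped no interval in either complete MA list, against 84.5% of all 71948 regions in no cut MA list. Both exclusive sets were thus absent from the other type's complete lists in smaller shares than regions of any kind in none of its cut lists. With the dropped narrow intervals counted as well, 3371 MA-only regions (38.5%) and 492 MC-only regions (46.1%) had no interval of the other type. Over regions of any kind these were 11054 of the 24919 in no cut MC list and 54627 of the 71948 in no cut MA list. Both exclusive sets again had the smaller share.

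MA-only regions were of middling strength in the tumor lists. Their median rank, where rank 1 is the highest −log10 p, was 20368 in MA 4 and 21438 in MA 5, and the quartiles were 12086 and 29884 in MA 4. Only 5.34 and 4.42% of them stood in the strongest decile of the MA 4 and MA 5 lists. Regions of all 6 lists made up 61.7 and 68.3% of that decile in MA 4 and MA 5, against 64.2, 72.9, 68.5 and 64.8% in the MC libraries. The strongest sites of both cell types were thus mostly sites found in every library. MA-only regions made up 11.1 and 9.16% of the strongest decile in MA 4 and MA 5. They reached a highest share of 26.7% in the fourth decile of MA 4 and of 28.2% in the fifth decile of MA 5.

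MC-only regions stood closer to the top of their lists. Their median rank was 12197, 13632, 13239 and 9908 in MC_Het 4, MC_Het 5, MC_Het 6 and MC_Homo. In each MC list their share was highest in the second or the third decile, at 6.11, 5.22, 5.44 and 7.67%. At the weakest decile they made up under 1% of each list, from 0.552% in MC_Het 6 to 0.761% in MC_Het 5. A region had to pass the list end in 4 libraries to be MC-only and in 2 to be MA-only, which bears on these ranks. Across MA-only regions the ranks in MA 4 and MA 5 had a Spearman correlation of 0.49 (n = 8761 regions, which share libraries and depth and are not replicates). Across MC-only regions it was 0.38 to 0.55 over the 6 MC pairs (n = 1067 regions).

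**Figure D3:**
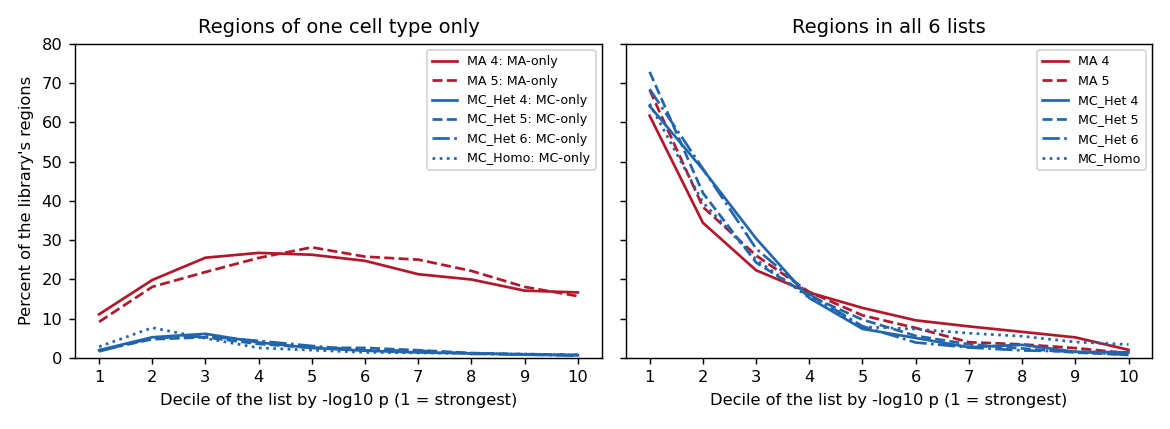
Share of a library's regions that were MA-only or MC-only (left) or in all 6 lists (right), in percent, by deciles of the list from strongest (1) to weakest (10) by −log10 p, with MA in red and MC in blue. Regions of all 6 lists make up 61.7 to 72.9% of the strongest decile in every library, whereas MA-only regions peak at 26.7 and 28.2% in the middle of the MA lists.

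The first and second MA-only regions were also found in every MC library, in the dropped narrow class. The first by mean rank over MA 4 and MA 5, chr9:56121905-56122232, held rank 45 in MA 4 and 46 in MA 5, with 418 and 581 tags over its summit. Each of the 4 MC libraries had an interval of the dropped narrow class there. With that class kept, the site held ranks 48 and 49 in MA 4 and MA 5, against 45, 87, 47 and 48 in MC_Het 4, MC_Het 5, MC_Het 6 and MC_Homo. The MA and MC ranks thus overlapped, and the intervals differed in width class. The same was found at the second, chr3:57542911-57543065, with ranks 92 and 97 in MA, against 73, 177, 101 and 82 in MC. They were held by 4 and 2 of the 6 run 3 lists, from which the narrow class had also been dropped.

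The next 8 were each found in all 6 run 3 lists. No narrow interval of an MC library was dropped at any of them, and each overlapped a weaker interval in the complete list of 1 or 2 MC libraries. At chr9:2125694-2126008, 169 and 180 tags were piled up in MA 4 and MA 5, with ranks 297 and 337, and with the narrow class kept MC_Het 5, the single MC library with an interval there, ranked it at 86582. At chr20:33675375-33675872 there were 148 and 165 tags, and at chr9:4352364-4352700 there were 131 and 146. The tumors were alike at these sites. They differed at chr19:35788497-35788951, with rank 263 in MA 4 and 1262 in MA 5, and in the other direction at chr9:50090740-50091179, with ranks 1207 and 330. The remaining 3 were chr22:3599943-3600394, chr18:10749204-10749694 and chr18:46185751-46186253, with 96 to 172 tags. Of the 10, 4 lay on chromosome 9 and 2 on chromosome 18. These chromosomes held 8.50 and 5.66% of MA-only regions, and 5.002 and 3.65% of all regions. The 4 on chromosome 9 include the first, which was found in every MC library in the dropped class.

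Of the 5 best MA-only regions without an interval in any complete MC list, 4 had a dropped narrow interval in all 4 MC libraries. Besides those on chromosomes 9 and 3 named first, these were chr14:34901372-34901718 and chr21:29247134-29247424. With the narrow class kept, the first of them ranked at 1162 and 1261 in MA 4 and MA 5, against 714 to 3202 in MC, and the other at 2100 and 621 in MA, against 606 to 796 in MC. The remaining one, chr24:38964650-38965047, had no interval of any width in an MC library. It held ranks 208 in MA 4 and 2131 in MA 5, with 180 and 68 tags, and was in all 6 run 3 lists.

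The best-ranked MC-only regions were narrow, and most were also found in MA in the dropped class. The first, chr9:14770239-14770363, was 125 bp wide and held ranks 395, 638, 618 and 511 in MC_Het 4, MC_Het 5, MC_Het 6 and MC_Homo, with 134, 299, 132 and 108 tags. The second, chr3:38174617-38174739, was 123 bp wide, with 100, 324, 144 and 78 tags. Both lay just above the width of the class that was left out. The third, chr23:42401735-42401865 (131 bp), had 92, 298, 125 and 92 tags, and the fourth, chr25:32820666-32820790 (125 bp), had 117, 265, 106 and 103. The fifth was chr19:18732671-18732803 (133 bp), with 66, 106, 48 and 60 tags.

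At 9 of the 10 best MC-only regions both MA libraries had an interval of the dropped narrow class. At chr9:14770239-14770363, with that class kept, the ranks were 3676 and 1356 in MA 4 and MA 5, against 481, 716, 734 and 631 in MC_Het 4, MC_Het 5, MC_Het 6 and MC_Homo. At chr25:32820666-32820790 they were 1910 and 741 in MA, against 566 to 878 in MC. At both sites the intervals of MA and MC lay in different width classes, and the ranks overlapped at the second. The ranks lay farther apart at chr9:7038474-7038600 (127 bp), at 32671 and 20213 in MA, against 1634 to 5408 in MC. The exception was chr13:52161005-52161178 (174 bp), where neither MA library had an interval of any width. It held 56, 339, 125 and 24 tags in MC_Het 4, MC_Het 5, MC_Het 6 and MC_Homo, and 2 run 3 lists held it. The others were chr2:45874615-45874881 (267 bp), chr4:73752070-73752238 (169 bp) and chr15:2736282-2736404 (123 bp). Of these 10, 7 were under 150 bp, against 0 of the 10 best MA-only regions. Over the whole sets the median width was 212 bp in MC-only and 299 bp in MA-only regions. Narrow regions were common in the lists, with a median of 167 bp and a lower quartile of 124 bp over all regions.

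MA-only regions were wide for their rank, and MC-only regions were narrow. As merged regions, the median width was 299 bp in MA-only (quartiles 231 and 377 bp), 212 bp in MC-only (135 and 354 bp), 284 bp in regions of all 6 lists and 167 bp over all regions. A merged region spans the intervals of all lists that hold it, so the width within a single library was also compared at equal rank. In the strongest decile of MA 4, MA-only intervals spanned a median of 379 bp, against 288 bp for regions of all 6 lists. In MA 5 the medians were 368 and 276 bp. MA-only regions were the wider in every decile of both MA lists, down to 190 against 138.5 bp and 173 against 149 bp in the weakest.

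In the MC lists the order was the opposite in the stronger deciles. In the second decile, MC-only intervals spanned a median of 132, 140, 143 and 129 bp in MC_Het 4, MC_Het 5, MC_Het 6 and MC_Homo, against 226, 284, 235 and 201 bp for regions of all 6 lists. In the eighth decile the MC-only intervals were the wider in MC_Het 5, at 293 bp against 251.5 bp for regions of all 6 lists, and in MC_Het 4, at 163 against 157.5 bp. Regions of 500 bp or more made up 5.56% of MA-only, 8.43% of MC-only, 13.1% of all-6 and 3.06% of all regions. Of the 3912 regions that wide, 487 were MA-only, 90 MC-only and 987 in all 6 lists.

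The melanomas of run 3, which had no part in the choice of regions, held a larger share of MA-only regions than of all run 2 regions, whereas their share of MC-only regions lay around that of all regions. In lists cut to the same length, MA 6 to MA 11 held 83.8, 74.9, 72.0, 66.0, 60.7 and 54.8% of MA-only regions. They held 16.7, 18.7, 27.6, 29.3, 29.99 and 37.5% of MC-only regions. Over all run 2 regions they held 25.6 to 28.8%, and over regions of all 6 run 2 lists 88.8 to 90.8%. MA 6 and MA 7 held smaller shares of MC-only regions than of all regions, and MA 11 a larger one. Every run 3 tumor held a larger share of MA-only than of MC-only regions.

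Per region, 2966 MA-only regions (33.9%, against 13.6% of all run 2 regions) were in all 6 run 3 lists, and 496 (5.66%, against 55.2% of all run 2 regions) were in none. In at least 4 run 3 lists were 5868 (67.0%, against 23.8% of all run 2 regions). Of MC-only regions, 29 (2.72%) were in all 6 run 3 lists, 386 (36.2%) in none and 171 (16.0%) in at least 4. MA-only regions had to be in both MA lists, so regions of both MA lists, whatever the MC lists held, are the closer comparison. Of those 27926 regions, 54.4% were in all 6 run 3 lists, 78.9% in at least 4 and 4.71% in none. The MA-only shares of 33.9 and 67.0% lay below these, and regions of both MA lists include those of all 6 lists. For MC-only regions, the closer comparison is regions of all 4 MC lists, whatever the MA lists held. Of those 10096 regions, 62.3% were in all 6 run 3 lists, 76.2% in at least 4 and 9.23% in none. The MC-only shares of 2.72 and 16.0% lay far below these, and the 36.2% in none lay above. Regions of all 4 MC lists also include those of all 6 lists.

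Recurrence in run 3 went with rank and width among MA-only regions. MA-only regions in all 6 run 3 lists had a median rank of 13641 and a median width of 347 bp, and those in none had 31978 and 223 bp. Among MC-only regions, the 29 in all 6 run 3 lists were 197 bp wide and those in none 279.5 bp, with the lowest median, 156 bp, for those in 4. Their median ranks were 10730.5 in all 6, 15740.5 in none and 8183.5, the best, for those in 4. A total of 888 MA-only regions (10.1% of the set) were in all 6 run 3 lists and overlapped no MC interval of any width. Of the MC-only regions, 106 (9.93% of the set) overlapped no MA interval of any width in either run. No share over all regions was worked out for these counts. MC libraries were sequenced in run 2 only, so the reverse comparison could not be made. In complete run 3 lists, 80.7% of MA-only and 39.6% of MC-only regions were found on average, against 68.7 ± 10.4% and 26.6 ± 7.73% in cut lists (SD, n = 6).

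**Figure D4:**
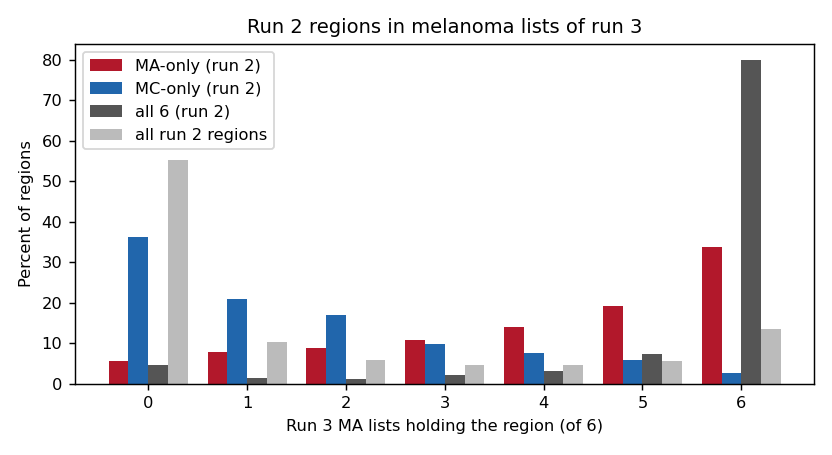
Percent of run 2 regions by the number of run 3 melanoma lists (0 to 6) that held them, for MA-only (red), MC-only (blue), all 6 (dark grey) and all run 2 regions (light grey). MA-only regions are most frequent at 6 run 3 lists (33.9%), MC-only regions at 0 (36.2%) and regions of all 6 lists at 6 (79.9%).

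Regions found in all 6 lists, chosen without regard to cell type, also differed in rank. Ranks were turned into normal scores, in which higher is stronger, and compared with limma over the 7541 regions. With a Benjamini-Hochberg adjusted p under 0.05, 659 regions (8.74%) ranked higher in MA and 1372 (18.2%) ranked higher in MC. Regions ranked higher in MA had a median rank of 1080 and 1366 in MA 4 and MA 5, against 7386, 6200, 7037 and 8773 in MC_Het 4, MC_Het 5, MC_Het 6 and MC_Homo. Regions ranked higher in MC had 21309 and 12481.5 in MA, against 3253, 2282.5, 3251.5 and 2928.5 in MC. These counts depended on the setting. With the narrow class kept, limma called 0 of 17483 shared regions in either direction (1943 and 3269 at an unadjusted p under 0.05). With intervals of 150 bp or more only it called 36 and 89 of 2436. Leaving out MA 4 gave 61 and 383, MC_Het 4 191 and 617, MC_Het 6 172 and 568, and MC_Het 5 340 and 856, and without MC_Homo 416 ranked higher in MA.

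The called regions of the 2 directions differed in width. Those higher in MA were a median of 400 bp wide and 0% were under 150 bp. Those higher in MC were a median of 139 bp wide and 57.8% were under 150 bp, against 21.5% of all shared regions. The regions stronger in melanocytes therefore held many intervals close to the width class that was left out, and the part of that class in their ranks was not tested. In the run 3 lists, which had no part in the calls, 98.3% of the regions higher in MA and 59.1% of those higher in MC were in all 6, against 79.9% of all shared regions. Over the regions that each list held, their median ranks in the 6 run 3 lists were 1376 to 2492 for those higher in MA and 5413 to 21810.5 for those higher in MC. In every run 3 tumor the median of the first set was the better, and the gap was smallest in MA 11, with 2492 and 5413. Shared regions not called had a median of 5533.5 in MA 11, so there the regions higher in MC ranked about as those not called. In MA 6 to MA 10 the regions not called had medians of 4891.5 to 6895, better than those higher in MC.

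The largest difference in favor of MA was at chr20:35269295-35270008, 714 bp wide. It held ranks 1559 and 555 in MA 4 and MA 5, against 36790, 28549, 18982 and 39627 in MC_Het 4, MC_Het 5, MC_Het 6 and MC_Homo. The rank score was 2.75 ± 0.46 higher in MA (SE, limma adjusted p = 0.0146), and all 6 run 3 tumors ranked the site between 346 and 1565. At chr22:16941215-16941755 the ranks were 386 and 2002 in MA, against 32573, 25411, 24633 and 30123 in MC (difference 2.45, limma adjusted p = 0.0113). At these sites MA and MC did not overlap. The next 3 were chr20:42321580-42322177, chr24:26844473-26844914 and chr23:3734907-3735431, with differences of 2.44, 2.42 and 2.37 (limma adjusted p = 0.0430, 0.0315 and 0.0113). With ranks by fold enrichment instead, the limma adjusted p values were 0.0921, 0.0512 and 0.0292. At chr20:42321580-42322177, MC_Homo ranked at 7301 while the MC_Het libraries ranked at 26588 to 39848.

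The largest difference in favor of MC was at chr12:25955242-25955451, 210 bp wide. It held ranks 42348 and 25627 in MA 4 and MA 5, against 2864, 2028, 2228 and 2724 in MC. The rank score was −3.39 ± 0.75 (SE, limma adjusted p = 0.0239), and run 3 tumors ranked the site between 17590 and 39372. In MA 4 it stood close to the end of the list. At chr13:50375600-50375977 the ranks were 42062 and 28797 in MA, against 3638, 6012, 2634 and 11915 in MC (difference −2.60, limma adjusted p = 0.0221), but run 3 tumors ranked it between 954 and 17261. At chr13:16599422-16599679 and chr15:26818048-26818190 the differences were −2.58 each, and 1 and 2 run 3 lists held the regions. The last of the 5, chr2:1112244-1112423, had a difference of −2.58 and was in 4 run 3 lists.

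Across all shared regions, the ranks of the 2 tumors were alike (Spearman correlation 0.78), as were those of MC pairs (0.74 to 0.83). The ranks of MA 5 were closer to those of MC (0.38 to 0.54) than the ranks of MA 4 were (0.14 to 0.33). These are descriptions over 7541 regions that share libraries and depth. The distance between MA 4 and MC was thus larger than that between MA 5 and MC for each of the 4 MC libraries.

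Few shared regions differed in width by themselves. With limma on log2 bp, 6 regions (0.0796%) were wider in MA and 4 (0.0530%) wider in MC at an adjusted p under 0.05 (290 and 157 at an unadjusted p under 0.05). The median log2 difference over all shared regions was 0.05, and after centring each library on its median it was −0.19, with 7 and 5 regions called (215 and 395 at an unadjusted p under 0.05). The largest log2 difference was at chr5:18732256-18732616 (log2 difference 1.43, limma adjusted p = 0.0156). It spanned 305 and 361 bp in MA 4 and MA 5, against 123 bp in each of the 4 MC libraries. These MC widths lay close above the narrow class that was left out. So did those at chr25:35392035-35392239 (122 to 128 bp) and chr6:10016120-10016316 (124 bp in each MC library). At the other regions called wider in MA, every MC width was 157 bp or more. The part of the narrow class in these calls was not tested. At chr23:3734907-3735431, also named above for its rank, the widths were 523 and 505 bp in MA, against 251, 247, 224 and 237 bp in MC. In the other direction, chr10:42575332-42575642 spanned 180 and 178 bp in MA, against 294, 311, 297 and 287 bp in MC, and chr4:72257275-72257492, with the lowest adjusted p of the 10 (limma, 0.00884), spanned 146 bp in both MA, against 216, 218, 217 and 213 bp in MC. The count of wider regions in MA was 14 without MA 4, 10 without MA 5, 23 without MC_Het 5, 3 without MC_Het 6 and 0 without MC_Het 4 or MC_Homo. In MC it was 12 without MA 5, 8 without MC_Het 5, 1 without MC_Het 6 and 0 without MC_Het 4 or MC_Homo.

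The distribution of intervals over chromosomes was nearly the same in all MC lists and uneven in both MA lists. The SD over the 25 chromosomes of the log2 share against the MC mean was 0.32 and 0.33 in MA 4 and MA 5, against 0.04, 0.05, 0.05 and 0.06 in MC. Each MC list was compared with the mean of the other MC lists. Since MC lists were the reference throughout, lists were also compared pair by pair, without a test. The SD of the log2 ratio of shares was 0.33 between MA 4 and MA 5, 0.31 to 0.34 between an MA and an MC list, and 0.05 to 0.07 between MC lists. The value for the 2 tumors lay within the range of the MA and MC pairs. Both MA libraries held a larger share than every MC library on 5 chromosomes (20.0%), namely 9, 18, 19, 22 and 24. Both held a smaller share than every MC library on 8 chromosomes (32.0%), namely 1, 2, 4, 5, 8, 12, 17 and 21. Each of these had an exact permutation p = 0.0667, the smallest possible with n = 2 and 4, and an adjusted p over 25 chromosomes of 0.128, so none passed the threshold.

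Chromosome 9 showed the largest gain that both tumors had. It held 5.23% of intervals in MA 4 and 6.91% in MA 5, against 4.27, 3.93, 4.003 and 4.28% in MC. Chromosome 18 followed, with 3.98 and 4.65% in MA, against 3.24 to 3.32% in MC. The lowest shares relative to MC were on chromosome 12, with 2.06 and 2.59% in MA, against 3.37 to 3.48% in MC, and on chromosome 1, with 2.56 and 3.19% in MA, against 4.05 to 4.34% in MC. On chromosomes 9 and 18 the gain was larger in MA 5, and on chromosomes 12 and 1 the loss was larger in MA 4.

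Several chromosomes set the tumors apart from each other. Chromosome 19 held 6.75% of intervals in MA 4 and 4.61% in MA 5, against 4.50 to 4.60% in MC, so that MA 5 lay just above MC. Chromosome 24 held 4.62 and 3.27% in MA 4 and MA 5, against 3.11 to 3.27% in MC, so that MA 5 again lay just above. In the other direction, chromosomes 20 and 23 held 5.90 and 4.80% of intervals in MA 5, while MA 4 lay at 4.51 and 3.36%, below the MC lists. The lower shares on chromosomes 2, 5 and 8 were likewise larger in MA 5, at log2 −0.59, −0.51 and −0.60, than in MA 4, at −0.15, −0.10 and −0.17. The MC lists departed from their mean by at most 0.11 on this scale.

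**Figure D5:**
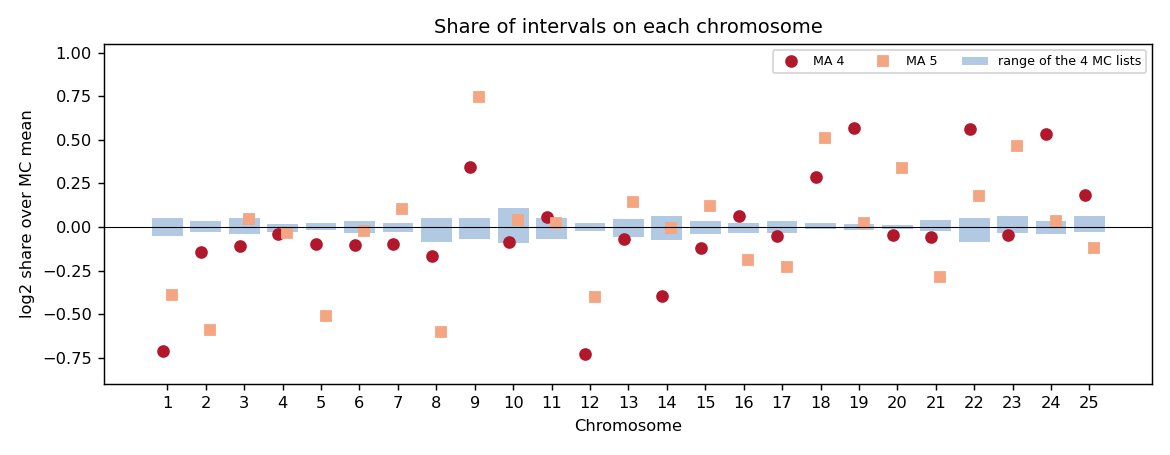
Log2 of the share of a library's intervals on each chromosome over the mean share of the 4 MC lists, for MA 4 (dark circles) and MA 5 (light squares), with blue boxes for the range of the MC lists. Both MA points lie above the boxes on chromosomes 9, 18, 19, 22 and 24 and below them on chromosomes 1, 2, 4, 5, 8, 12, 17 and 21.

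MA-only regions were unevenly spread over the chromosomes. Chromosome 9 held 745 of them, or 8.50% of MA-only regions, against 5.002% of all regions. On that chromosome 45.0% of the regions of both MA lists were MA-only, and on chromosome 18 the share was 41.1%. It was lowest on chromosomes 2, 1 and 12, at 20.8, 22.7 and 22.8%. Over all chromosomes 8761 of the 27926 regions of both MA lists were MA-only. Chromosome 12 held 145 MA-only regions (1.66%, against 3.16% of all regions) and chromosome 1 held 181 (2.07%, against 3.80%). The sets were chosen from the same lists as the shares, so these values are a description.

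The rank of shared regions moved in the same direction on most chromosomes at the extremes of share. Share and rank were both taken from the −log10 p of the same lists, so they are not independent measures, and this is a description. The median MA minus MC rank score was 0.46 on chromosome 19, 0.34 on chromosome 9, 0.33 on chromosome 22 and 0.30 on chromosome 24, against −0.05 over all 7541 shared regions. It was −0.30 on chromosome 1 and −0.29 on chromosome 12. Of the shared regions on chromosome 9, 20.6% ranked higher in MA, against 0.855% on chromosome 12 and 1.28% on chromosome 1. The share ranked higher in MC moved less, at 21.3% on chromosome 9, 20.5% on chromosome 12 and 17.9% on chromosome 1. On chromosome 18 the median was 0.03, though 19.8% ranked higher in MA. Chromosome 21 was an exception, with a smaller share in both tumors but a median of −0.015, above that over all shared regions. Chromosome 4 had a median of −0.26, although its share lay only slightly below MC (log2 −0.04 in MA 4 and −0.03 in MA 5).

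How often MA-only regions recurred in run 3 also varied by chromosome. On chromosomes 2 and 1, which held few MA-only regions, 57.7 and 54.1% of them were in all 6 run 3 lists. On chromosomes 16, 4 and 3 the share was 13.0, 17.0 and 17.6%, against 33.9% over all chromosomes. On chromosome 9 it was 33.8%, close to the whole. The chromosome with the most MA-only regions in run 2 was thus not the one whose MA-only regions recurred most. The same share over all regions of each chromosome was not worked out, so whether these values are particular to MA-only regions is not known.

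MC-only regions were spread differently. Chromosome 4 held 67 of them, or 6.28%, against 3.71% of all regions, and 15.7% of the regions of all 4 MC lists on that chromosome were MC-only. Over all chromosomes, 1067 of the 10096 regions of all 4 MC lists were MC-only. Chromosome 2 held 64 (5.998%, against 4.96% of all regions) and chromosome 8 held 59 (5.53%, against 3.94%). The fewest were on chromosomes 24 and 25, with 26 each (2.44%), against 3.60 and 2.84% of all regions. These counts are small, and no test was made of them.

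Some MA-only regions lay close together within chromosomes. Of MA-only regions, 23.9% had another MA-only region within 10 kb, while 16.2% of all regions had an MA-only region that near. For regions of both MA lists, which include the MA-only ones, it was 19.7%. Of MC-only regions, 3.19% had another MC-only region within 10 kb, against 1.90% of all regions and 2.22% of regions of all 4 MC lists. Among the 1361 windows of 1 Mb, the median number of MA-only regions was 6 and the highest was 27, in the window from 8 to 9 Mb of chromosome 9. That window held 152 regions of any kind, against a median of 98 over the windows. The next windows, with 26 and 24 MA-only regions, were also on chromosome 9, from 14 to 15 and from 43 to 44 Mb. Of the 6 windows with 23, 3 were on chromosome 9, from 7 to 8, 47 to 48 and 50 to 51 Mb, and 1 each on chromosomes 18, 22 and 23. Those of chromosome 9 lay at several places along the chromosome rather than in a single block. MC-only regions reached at most 5 in a window, on chromosomes 2, 5 and 8.

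Position relative to chromosome ends and to shared sites was similar in value between the sets, and was not tested. Within 5 Mb of an end lay 23.3% of MA-only, 26.5% of MC-only, 28.7% of all-6 and 25.4% of all regions, where the end was taken as the farthest interval in any list. A region of all 6 lists lay within 10 kb of 13.5% of MA-only and 12.6% of MC-only regions, against 13.1% of all regions. The median distance to such a region was 50.3 kb for MA-only, 52.9 kb for MC-only and 51.6 kb for all regions. The 3 shares lay within 1 percentage point of each other.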

How the data were processed

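Adult zebrafish cells had been sorted and profiled by ATAC-seq, and the study's methods state adapter trimming with CutAdapt, alignment to GRCz11 (danRer11) with BWA, a mapping quality over 30, removal of duplicates, and peak calling with MACS2 (effective genome size 1000000000 bp, no model, shift −50 bp, extension 100 bp, duplicate limit 999, summits called). Each library has its own list. Tool versions were not given in the sources used here. The submitters' processing notes list the builds GRCz10 and danRer11. For each peak the authors deposited the fold enrichment at the summit, a ratio of pileup to local background after adding 1 to each, with the −log10 of its p-value and of its q-value (threshold 0.05). Because each library has its own calls, list length and the weakest −log10 p depend on depth, and missing from a list does not mean closed.

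Intervals on chromosomes 1 to 25 were collapsed to 1 per unique start and end with the highest −log10 p. Intervals of 119 to 121 bp (end minus start) were dropped from all lists, including those called complete. The 6 run 2 lists were cut to 42364 by −log10 p, with ties ordered by fold enrichment and then in seeded random order. Regions are their union, merged at 1 bp of overlap, with coordinates counted from 1. Tags at a summit and the local background were solved from the fold enrichment and −log10 p (at least 99.998% of peaks reproduced within 0.01), and depth was the most frequent background times genome size over extension. Library measures and chromosome shares were compared by two-sided exact permutation tests over 15 splits, which cannot give a p below 0.0667. Rank scores and log2 widths of shared regions were compared with limma 3.58.1 (R 4.3.3) and Benjamini-Hochberg adjustment over all 7541 regions, using residual spread between the 6 fish. Limma, the merging and the pileup solution were tested on simulated data. Python 3.11.15, numpy 2.4.6, pandas 2.3.3 and scipy 1.17.1 were used.

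Regions named are the 10 best of each exclusive set by mean rank, the 5 best of each absent from every complete list of the other type, the 5 shared regions with the largest rank difference in each direction, and the regions called in width, of which some are given with values. The width calls fell outside the original rule and were named after their values were seen. The members, lists and tests were chosen with earlier results of these data known. Alternatives changed the width filter, list length, q threshold, ranking column, overlap, summit windows, depth, block and libraries. Planned analyses of promoters, gene lists, cell type markers and motifs were not run, since no annotation or sequence of this assembly was used here, and read counts at shared sites were not used here.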

Additional observations from a re-analysis of the deposited data

Results flagged for a closer look

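The share of intervals of 500 bp or more in MC_Het 5 was 4.003%, far from the other MC libraries (0.354% in MC_Het 4, 0.711% in MC_Het 6 and 0.208% in MC_Homo) and above both MA libraries (2.57 and 2.20%). Its gap to the nearest MC library was 0.868 of the range of the 4, over the critical value of Dixon's test for 4 samples. It was the single such value among 14 examined. Chance alone gives about 1 in 20 values examined, so 1 among 14 can arise by chance. MC_Het 5 also had the most tags (24.6 M, against 6.42 to 10.6 M in the other MC libraries), and the part of depth in its wide intervals was not tested.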

How the results depend on the processing

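MA-only regions outnumbered MC-only regions in every alternative run. In lists of 10000 there were 2368 MA-only and 1186 MC-only regions, or 9.51 and 4.76% of the regions of that setting. With intervals of 150 bp or more only (chosen after seeing the data) there were 2350 and 399, or 7.53 and 1.28%. MC-only regions numbered 1734 (1.19%) with narrow intervals kept and 416 (0.677%) at a −log10 q of at least 10. Leaving out each library gave 9770 to 17564 MA-only and 1308 to 2993 MC-only regions. With fewer lists to satisfy, these counts rise by construction at the same list length. The run without MC_Homo also lengthened the lists to 60900, and at the main length (chosen after seeing the data) it gave 9825 and 2481. With narrow intervals kept, 13 of the 23 exclusive regions named were no longer exclusive. Lists thinned to the lowest depth gave 8786 and 884. The difference in covered length reversed in complete lists (−2.86 Mb, exact permutation p = 1), where lengths differ by construction. In complete run 3 lists the mean shares were 80.7% of MA-only and 39.6% of MC-only regions.

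Calls on shared regions depended most on the setting, and the cause was not tested. Regions ranked higher in MA numbered 0 with narrow intervals kept, 424 by fold enrichment and 36 with intervals of 150 bp or more only. Regions ranked higher in MC numbered 0 with narrow intervals kept and 89 with intervals of 150 bp or more only. With the replicate number as a block, limma called 0 regions in rank (762 and 1568 at an unadjusted p under 0.05) and 0 in width (197 and 207), in either direction. The numbers name different fish, and deviations of same-numbered samples correlated at 0.02 to 0.05. With 2 MA libraries their deviations mirror each other, so these correlations cannot show whether same-numbered samples shared more than a number. Leaving out each library gave 61 to 529 and 383 to 2011 regions ranked higher in MA and MC, and 0 to 23 and 0 to 12 wider in MA and MC. MA minus MC then ranged over 51 to 76.3 bp in median width, 2.05 to 3.40 Mb covered, 0.696 to 1.96 percentage points in wide intervals, −5.97 to −1.35 points in intervals with 1 summit, 2.66 to 3.87 in fold enrichment, 0.313 to 3.04 in the weakest −log10 p and 0.27 to 0.29 in the SD of chromosome shares. With 2 against 4 libraries the exact permutation test cannot pass 0.05. The SD of chromosome shares is taken against the mean of the MC lists, without the list being measured, so MC is the reference throughout.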
